A study of Rattus norvegicus with 12 samples.

Results

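Genes with long 5' UTRs were examined in rat hippocampal neuron cultures: those whose 5' UTR was at least 400 bases long in control cultures. The authors' table gives a 5' and a 3' length in bases for each gene entry, 1 value for control and 1 for picrotoxin. Entries with both 5' lengths above 0 covered 9100 gene names. After taking the median over the entries of a name, 1224 names, or 13.5%, reached 400 bases in control. The control length therefore chose the members, and it is given below as a description. The table pools replicates, so no difference in length can be tested.

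The cultures came from the hippocampus of Sprague-Dawley rats at embryonic day 18 and were enriched for neurons. Vehicle or picrotoxin, a blocker of the chloride channel of GABA-A receptors, was applied at 18 days in vitro for 48 h, and RNA was taken at 20 days in vitro. PolyA libraries had 3 biological replicates per arm, numbered 3, 10 and 20, and library totals of the deposited scaled fragment counts ran from 12304776 to 12982866. The small RNA libraries were not used here. In bulk RNA such as this, fewer cells of a type and less RNA per cell cannot be told apart.

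The 5' UTR is the part of an mRNA ahead of its coding sequence. In cap-dependent initiation the small ribosomal subunit loads near the cap and scans along the leader to the start codon, so that folded stretches and upstream reading frames in a long leader can lower or regulate the making of protein. Short leaders that begin with a pyrimidine tract are typical of ribosomal proteins, whereas genes with several promoters, such as Bdnf and Nrg1, can carry different leaders on one coding sequence.

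The 5' end of an mRNA is set by its promoter, and RefSeq promoter windows (assembly GRCr8, 250 bases before to 50 after the annotated start) were matched by symbol for 906 of the 1224 members. The start there need not be the one the authors measured, and no leader sequence was read. 3 motifs were searched on both strands: TGACGTCA, the palindromic cAMP response element, TATAAA, the TATA box, and GGGCGG, the GC box. Of 29 genes that changed in level with picrotoxin and had a promoter window, 2 held the cAMP response element, 2 held TATAAA and 16 held the GC box. Runs are shown for the cAMP response element and TATAAA. Those of the GC box are not shown, although several also belong to genes whose levels are described below. The motif is in capitals and each run is read 5' to 3' on the strand of its gene.
Vgf, cAMP response element, minus strand, chr12:25277092-25277121: tgaatgaacatTGACGTCAatggggcgggg
Tenm3, cAMP response element, plus strand, chr16:50260716-50260745: gctgctcgcgcTGACGTCAtgccaaccttt
Vgf, TATA box, minus strand, chr12:25277044-25277073: cgcgctccccttTATAAAgcagcggtggcg
Atp1b2, TATA box, minus strand, chr10:54823743-54823772: agagtcacagagTATAAAgactgtgcgcag

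The motif in Vgf began 90 bases before the annotated start for the cAMP response element and 41 bases before it for TATAAA. Vgf also holds TATAAA on the opposite strand, beginning 43 bases before the start, so these matches overlap. In Tenm3 the cAMP response element began 62 bases before the start, and in Atp1b2 TATAAA began 52 bases before it. Over all members with a window, TGACGTCA was present in 27 (2.98%), against 3.24% of 6023 names under the limit and 1.7% of all 27457 genes of the RefSeq table. TATAAA was present in 57 (6.29%), against 5.6% under the limit and 13.1% of all genes, and GGGCGG in 476 (52.5%), against 62.2% and 32.4%. GC content averaged 61.0% (SD 10.0) in members, 61.6% (SD 9.18) in names under the limit and 53.1% (SD 11.5) in all genes. A match is a description of the letters, not a site.

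Members ranged from the limit to 62488 bases in control, with a median of 707.5 and quartiles of 509.75 and 1424.75 bases. The names under the limit had a median of 104 bases. Just inside the limit were Cdc42ep2, Metrn and Ndst1, each at 400 bases in control and at 399, 400 and 398 in picrotoxin. Just outside were Bad (399 in control, 442 in picrotoxin), Rab23 (399 and 164) and Rab7l1 (399 and 398). Of the members, 1154 had a single entry and 70 had several.

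The longest control lengths include values that need care as leaders. Nt5dc1 was listed at 62488 bases, Xkr6 at 35310, Tnrc6b, a partner of Argonaute in microRNA silencing, at 17107, and Kalrn, a guanine nucleotide exchange factor of dendritic spines, at 16727. The microRNA names Mir568 (24328 bases), Mir384 (20899) and Mir770 (13810) are also among the 8 longest, although a microRNA has no coding sequence and so no leader. Adra1a, an adrenergic receptor, completed these 8 at 14075 bases. In all, 13 members carry microRNA names, and 26 members have a 5' length greater than the span of their own locus in the authors' gene table, 9 of them microRNA names. No source used here states whether the lengths include introns or neighbouring transcription.

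Some names also share one measurement. 28 members had all 4 lengths, at both ends in both arms, equal to those of another member. These include 11 Pcdhg names at 547 bases in control, the clustered protocadherins, and 8 Ugt1a names at 1325 bases, the glucuronosyltransferases that share their last exons. Mir132 and Mir212, neighbours in one cluster, both had 2390 bases in each arm. Such names are not independent of each other.

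Long 5' UTRs were unevenly spread over the gene groups. Among synaptic scaffold, spine and adhesion genes, 14 of 41 names reached the limit (34.1%), among them Kalrn and Shank2 (6963 bases), a postsynaptic scaffold. Cytoskeleton, motor and axon guidance genes had 14 of 44 (31.8%), with the guidance cue Slit3 at 8445 bases. Immediate early and activity-regulated genes had 9 of 29 (31.0%), and voltage-gated and leak ion channels 12 of 42 (28.6%), with Kcnt1, a sodium-activated potassium channel, at 4323. Neurotransmitter receptor subunits had 9 of 39 (23.1%).

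At the other end, translation initiation and scanning factors had 4 of 53 (7.55%): Eif3l (1262 bases), the helicase Ddx3x (1129), Cyfip2 (998) and Pabpc1 (455), the cytoplasmic poly(A)-binding protein. None of 63 cytosolic ribosomal protein names reached the limit, and their median was 52 bases with a longest of 192. Genes known for translation control through upstream reading frames or leader structure had 7 of 35 (20.0%), including Myc at 830, Azin1 at 727 and Bace1 at 467 bases. Presynaptic vesicle and active zone genes had 5 of 41 (12.2%) and RNA-binding proteins 6 of 47 (12.8%), both near the 13.5% of all names. The shares are counts over lists, with no test.

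**Figure D1:**
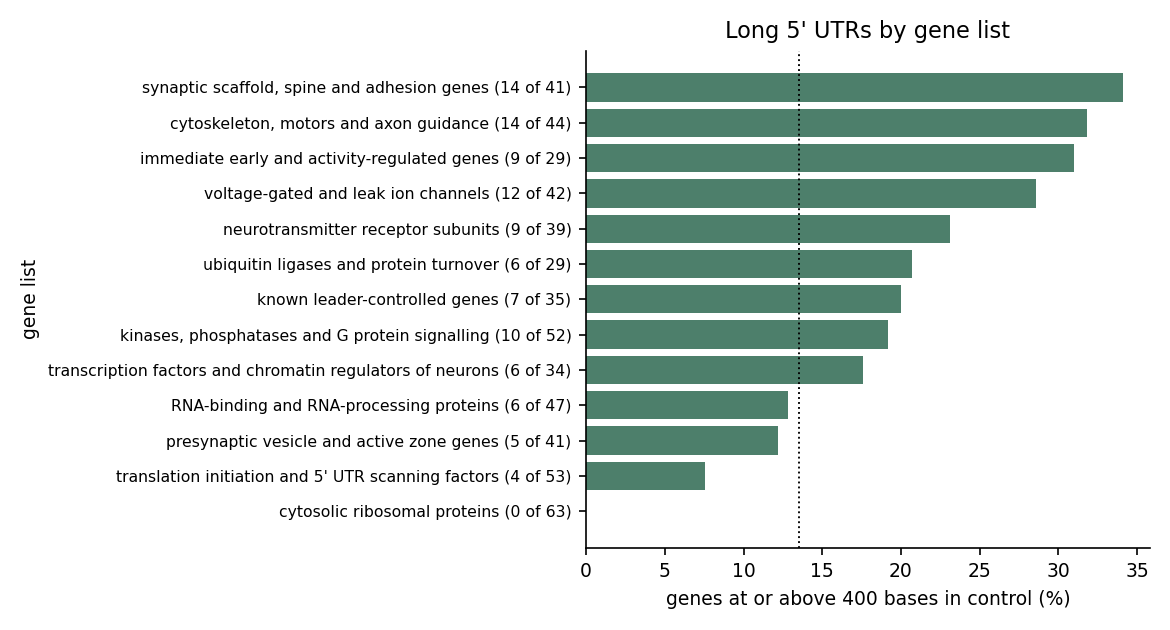
Share of the names of each gene list, in percent, with a control 5' length of 400 bases or more; counts of names stand beside each list, and the dotted line is the 13.5% of all 9100 names. Synaptic scaffold genes reach 34.1%, and ribosomal protein genes have none.

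Most long 5' UTRs had nearly the same length in both arms. 277 members had identical lengths and 720 (58.8%) differed by at most 30 bases, for example Vgf at 1014 bases in both arms, Prkcb, a protein kinase C, at 8406 in both, and Shank2 at 6963 in both. A difference of 100 bases or more was listed for 29.0% of members, against 8.68% of names under the limit. 276 members were shorter by that much in picrotoxin and 79 were longer. Over all 9100 names, 5.84% were shorter and 5.58% longer by that much.

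The excess of shorter lengths among members follows the arm used for the choice. When names were chosen by a picrotoxin length of 400 bases or more, 1221 names qualified, of which 86 were shorter and 269 were longer in picrotoxin. When chosen by the mean of both arms, 1277 qualified, with 217 shorter and 196 longer. Nothing is read from the direction of the members' lengths, nor from how often they differed beside names under the limit. 1010 names reached the limit in both arms and 307 reached 1000 bases in both.

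**Figure D2:**
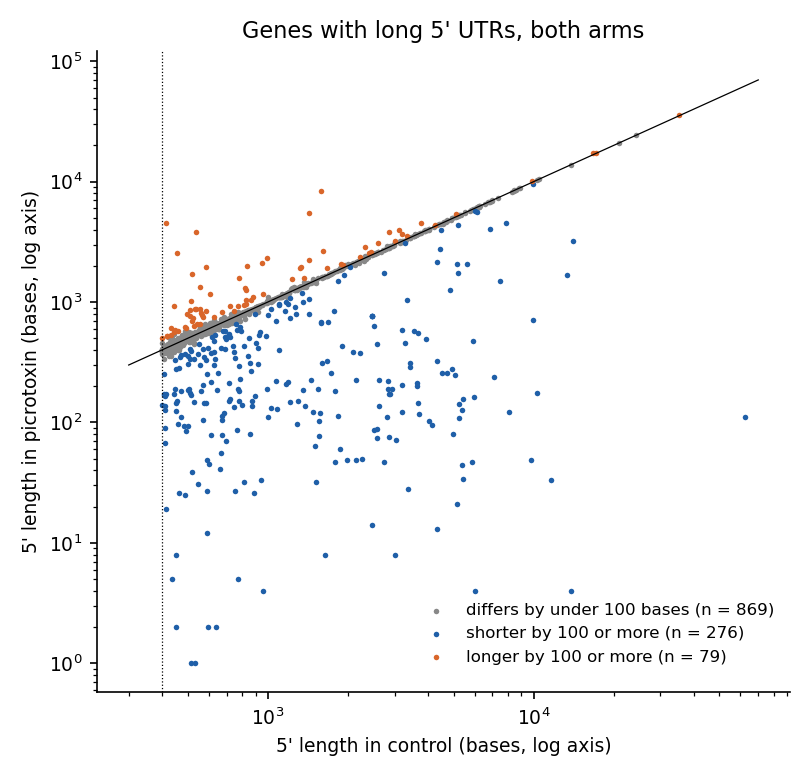
Median 5' length of each of the 1224 genes in control (horizontal, bases, log axis) and picrotoxin (vertical, bases, log axis); the solid line marks equal lengths and the dotted line the 400 base limit. 276 genes lie below the line by 100 bases or more, 79 above it, and 214 fall under 400 bases in picrotoxin.

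The largest single differences were large beside the leaders themselves. Nt5dc1 was listed at 112 bases in picrotoxin, Wdfy2 went from 13777 to 4, Ubn2 from 13301 to 1664, Polr3g, a subunit of RNA polymerase III, from 11647 to 33, Adra1a to 3237 and Nrg1, the ErbB ligand neuregulin, from 10285 to 177. In the other direction, Clpb, a mitochondrial disaggregase, went from 1589 to 8309 bases, Brpf3 from 1435 to 5522, Trim67 from 413 to 4500, Tspan9 from 539 to 3789, Mycl, a MYC family transcription factor, from 456 to 2567 and Gls2, a glutaminase, from 585 to 1945. None of these 12 genes passed the test on level described below, whereas with the replicate number as a block Nt5dc1 (log2 difference 0.40 ± 0.18, SE, adjusted p = 0.297; 0.0318 with the block), Nrg1 (0.34 ± 0.21, 0.456; 0.0492) and Mycl (-0.77 ± 0.20, 0.0737; 0.013) did. At 65 members the picrotoxin value was under 100 bases. Such short values need the same care as the longest ones, because no source used here says how ends were called.

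Differences were more frequent in the longer classes and at low levels. Of 489 members from 400 to under 600 bases in control, 20.0% differed by 100 bases or more between arms. The share was 28.3% from 600 to under 1000, 34.1% from 1000 to under 2000, 42.6% from 2000 to under 5000 and 48.1% of 77 members at 5000 or more. The classes were cut on the control length, which also chose the members, and the rise lay on the shorter side. In the first class 13.3% were shorter in picrotoxin and in the last 41.6%. Longer lengths were listed for 33 of 489 and 5 of 77, so nothing about long leaders is read from the rise. By FPKM, the fragment rate per transcript length and library size that the authors give per arm, 50.7% of the 280 lowest members (at most 6.62 FPKM in control) differed, then 24.7% and 21.9% of the next, and 16.1% of the 279 highest. The median control length was 942.5 bases in the lowest of these groups and 620 in the highest, so length and level moved together. Their parts in the differences were not tested.

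**Figure D3:**
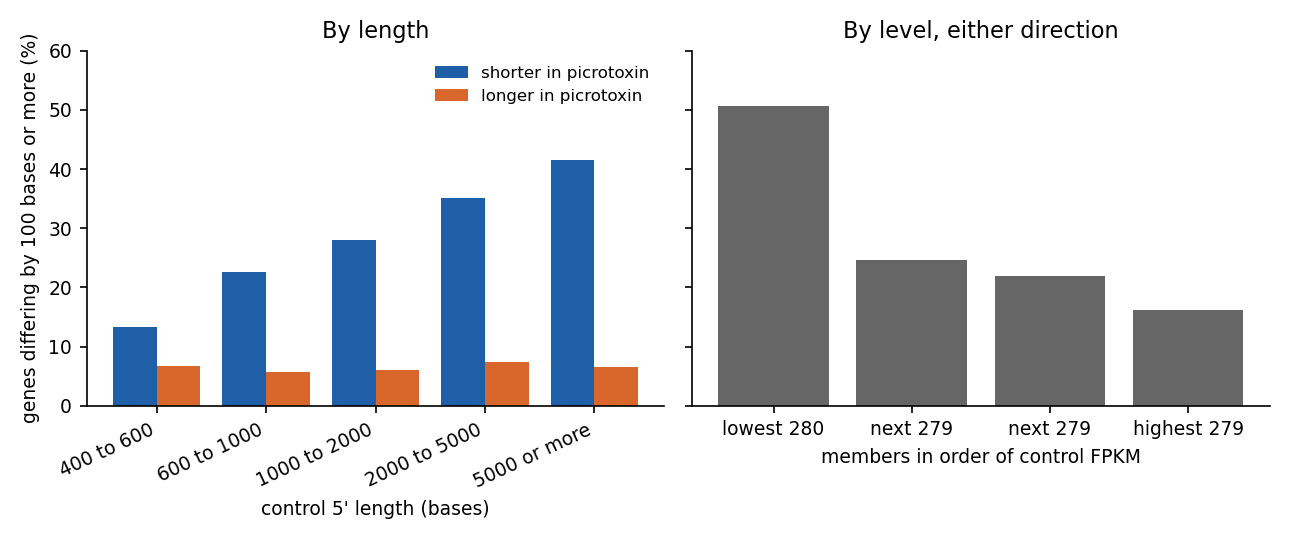
Percent of genes with long 5' UTRs whose 5' length differs by 100 bases or more between arms, by control length in bases (left, shorter and longer in picrotoxin) and in 4 groups ordered by control FPKM (right, either direction). The share in either direction is 50.7% in the lowest group and 16.1% in the highest.

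Shifts at the 5' end were not always separate from the 3' end. Of 575 entries at or above the limit that shifted by 30 bases or more at the 5' end, 28 had exactly the same shift at the 3' end. The mineralocorticoid receptor Nr3c2 dropped by 851 bases at each end, from 1074 to 223 at the 5' end and from 3690 to 2839 at the 3' end. Cabp1, a neuronal calcium sensor, was 339 bases longer at each end, and Adra1a dropped by 10838 bases at each. 12 entries had equal 5' and 3' lengths in both arms, including Six3, a homeobox factor, at 795 in control and 575 in picrotoxin. Where an end differs by the same number of bases at both sides, the table alone does not show which side of the coding sequence it belongs to.

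The members' 3' UTRs were also longer than those of other genes, with a median of 1086 bases in control against 683 for names under the limit. A 3' length shorter in picrotoxin by 100 bases or more was listed for 83 of 1200 members (6.92%), where the share over all 8982 names with both 3' lengths was 5.59%. A longer one was listed for 49 (4.08%), where the share over all was 4.68%. Bdnf, the activity-regulated neurotrophin, went from 2700 to 420 bases at the 3' end with a 5' median of 470 and 458.

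Several members have alternative leaders in the table. Bdnf had 10 entries from 21 to 1319 bases in control. Its longest leader, in 3 entries, was listed at 956 bases in picrotoxin, another went from 834 to 570 and another from 282 up to 607. Nrg1 had 14 entries, of which 8 went from 10285 to 177 bases, while 1 entry with the same control length was at 10509 in picrotoxin and 3 went from 503 to 616. The median of this gene thus hides entries that did not shorten.

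Other genes with several entries differed little between arms in most of them. Crem, a cAMP-responsive factor, had 8 entries between 47 and 9957 bases in control, and its pair of longest entries was at 9914 in picrotoxin. Pde4d, a cAMP phosphodiesterase, had 4 entries at 6842 and 6816 bases. Vegfa, the angiogenic growth factor, had 13 entries, 4 of them at 1002 and 1020 and 4 at 465 and 483, and 1 went from 1883 to 1602. Flot2 had the same 3 lengths, 187, 1176 and 2240, in each arm.

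**Figure D4:**
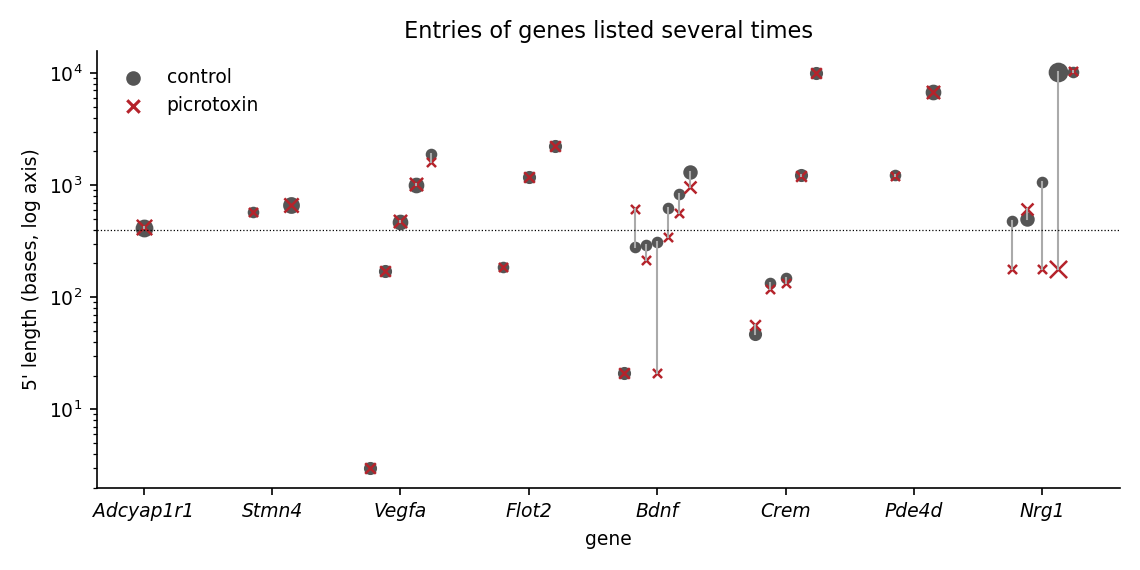
5' length in bases (log axis) of each distinct entry of 8 genes listed several times, in control (circles) and picrotoxin (crosses), joined by a line; larger symbols stand for more entries with that pair, and the dotted line is the 400 base limit. Entries of Crem, Flot2, Pde4d and Stmn4 nearly coincide, whereas 8 entries of Nrg1 go from 10285 to 177.

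The level of these genes was compared between arms with a test across all 12046 genes at 1 FPKM or more in at least 1 arm, on log2(scaled fragment count + 1). This test did not pair the libraries by replicate number. 1140 members matched 1 gene, and 1117 of these passed the filter. 18 (1.61%) rose with picrotoxin and 25 (2.24%) fell at an adjusted p under 0.05. Over all genes tested, 1.67% rose and 1.62% fell. The members' share that rose thus lies near the background and the share that fell is higher, a difference that was not tested. With the replicate number as a block, 102 members (9.13%) rose and 169 (15.1%) fell, where 9.65% and 10.4% of all genes did. The median log2 difference was -0.04 in members, -0.00 in names under the limit and -0.01 over all genes tested, and 42.6% and 49.9% of members and of names under the limit were above 0.

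The count of members rests on the libraries. Without control replicate 3, 10 or 20 the members that rose numbered 8, 0 and 7, and those that fell 13, 2 and 10. With limma and without control replicate 10, 52 of the 1117 members tested were higher at an unadjusted p under 0.05. No share over all genes is given for that count, so nothing is read from it. Without picrotoxin replicate 3, 10 or 20, 7, 5 and 30 members rose and 9, 10 and 75 fell. Without limma's trend and robust settings 12 of the 43 called members stayed called: Atp2b4, Nr3c2, Kalrn, Rfx3, Cdh11, Arhgef25, Thsd7a, Vgf, Sptssb, Prkcdbp, Cdc42ep2 and Gfpt2. All 43 members called with 6 libraries were also called with the block. In each the 3 picrotoxin libraries lay outside the range of the 3 controls. Calling itself favours such genes, so the lack of overlap here and below is a description and adds no support. It was also found in members not called with or without the block, such as Atf2 (log2 difference -0.08) and Pabpc1 (-0.13). Markers of neurons summed to 100589 to 110427 scaled fragments in control and 86103 to 93859 in picrotoxin, with 1 of 10 called lower, and those of excitatory neurons to 27910 to 29477 and 18535 to 22898, with 1 of 9 called higher and 1 lower. Interneuron markers overlapped, at 16744 to 24614 and 20309 to 33150, with none of 9 called and 5 higher with the block. Microglia were near absent, with 9 of 10 markers under 1 FPKM, and astrocyte markers overlapped between arms (6551 to 8782 and 6007 to 8346), with Aldh1l1, Gjb6 and Sox9 under 1 FPKM. With the block, 6 of 10 neuron markers were lower and none was higher. Among excitatory markers 5 of 9 were then lower and 2 higher. Of 7 astrocyte markers tested, none was called without the block and 4 were lower with it. The part of these markers in the results was not tested.

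Members were expressed at moderate levels, with a median of 16.1 FPKM in control and quartiles of 6.62 and 36.4, against 23.0 FPKM in names under the limit. They held 9.77% of the summed scaled fragments of the controls. The most abundant were Rtn1, a reticulon of the endoplasmic reticulum (994.8 FPKM, 762 bases in both arms), Stmn4, a stathmin that binds tubulin (709.2 FPKM, 661 bases in both), Syt1, the calcium sensor of vesicle release (497.2 FPKM, 617 and 548 bases), and Ncald, the calcium sensor neurocalcin delta (447.4 FPKM, 1547 and 189 bases). None of these passed the test, with log2 differences of -0.20 ± 0.11 (SE, n = 3 per arm), 0.23 ± 0.09, -0.30 ± 0.11 and -0.24 ± 0.10. With the replicate block all 4 passed, at adjusted p values of 0.0226, 0.0207, 0.00171 and 0.0276.

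The largest rise was in Lgi2, a secreted leucine-rich repeat protein of synapses (ENSRNOG00000003887). Its scaled fragment counts were 483.7, 464.7 and 672.9 in control replicates 3, 10 and 20 and 1246, 1182 and 2479 in the same picrotoxin replicates. Every picrotoxin library was above every control, and replicate 20 was the highest in each arm. The log2 fold change was 1.53 ± 0.26 (SE, n = 3 per arm, adjusted p = 0.0163), and the listed 5' length went from 6009 to 4 bases. The call was lost without control replicate 3 (adjusted p = 0.0545) or control replicate 10 (0.0875).

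Vgf, a neuropeptide precursor induced by activity and neurotrophins, lies at chr12:24689887-24692911 in the authors' table, for which no source used here names a genome build. Its scaled fragment counts were 1758, 1621 and 1816 in control and 2527, 2713 and 3207 in picrotoxin. The groups were apart in all 3 replicate numbers, with a log2 fold change of 0.70 ± 0.10 (adjusted p = 0.00936). Its leader of 1014 bases was the same in both arms. The call was lost without control replicate 10 (adjusted p = 0.073).

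Mgll, Sptssb, Kcnk12 and Kcnj4 also rose. Mgll, the lipase that degrades an endocannabinoid, had 520.7, 613.9 and 676.1 scaled fragments in control and 869, 939.8 and 1151 in picrotoxin, with a log2 fold change of 0.71 ± 0.13 (adjusted p = 0.0225). Sptssb, a small subunit of serine palmitoyltransferase in sphingolipid synthesis, had 219.9, 246.3 and 244.8 in control and 394.7, 438.6 and 372.4 in picrotoxin, with 0.76 ± 0.11 (adjusted p = 0.0105). The leaders of both were stable, at 476 and 499 bases and at 1674 and 1644. Kcnk12, a background potassium channel, rose by 0.99 ± 0.22 (adjusted p = 0.038), and Kcnj4, an inward rectifier potassium channel, by 0.45 ± 0.08 (adjusted p = 0.02) with 552 bases in both arms. Sptssb lost its call without control replicate 10 (adjusted p = 0.063), Mgll without control replicate 3 (0.0786) or 10 (0.107) or picrotoxin replicate 3 (0.0505) or 10 (0.0676), Kcnk12 without control replicate 10 (0.164) or 20 (0.107) or picrotoxin replicate 10 (0.13), and Kcnj4 without any 1 library other than picrotoxin replicate 20 (0.052 to 0.139).

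Tenm3, a teneurin that guides synaptic partners, is listed with one of the longest stable 5' lengths, at 10467 and 10520 bases. Its scaled fragment counts were 2153, 2137 and 2769 in control and 3237, 3149 and 3827 in picrotoxin. The libraries did not overlap, and replicate 20 was the highest of each arm. The log2 fold change was 0.54 ± 0.12 (adjusted p = 0.0408), and adjusted p was 0.207 without control replicate 10, 0.139 without control replicate 3, 0.107 without picrotoxin replicate 3 and 0.0828 without picrotoxin replicate 10.

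7 of the 18 genes that rose had a shorter 5' length by 100 bases or more in picrotoxin, and several of these have low levels. Mepe, known as a matrix protein of bone, had 80.78, 61.12 and 90.07 scaled fragments in control and 146.8, 129.5 and 228 in picrotoxin (log2 fold change 1.08 ± 0.23, adjusted p = 0.0353), with lengths of 1506 and 64. Prkcdbp, a cavin of caveolae, had 46.71, 31.46 and 36.03 against 75.82, 83.54 and 74.27 (1.03 ± 0.20, adjusted p = 0.0251), with 591 and 27 bases. Tec, a cytoplasmic tyrosine kinase, had 93.43, 92.58 and 78.42 against 160.4, 142 and 206.1 (0.92 ± 0.17, adjusted p = 0.0216), with 1568 and 120 bases. In all 3 genes the lowest picrotoxin library lay above the highest control. Mepe lost its call without any 1 library other than picrotoxin replicate 20 (adjusted p 0.0501 to 0.164), Prkcdbp without control replicate 10 or 20 or picrotoxin replicate 3 or 10 (0.0715 to 0.124), and Tec without any 1 control or picrotoxin replicate 3 (0.0575 to 0.0917). The others with shorter lengths were Lgi2, Gfpt2, an enzyme of the hexosamine pathway (2743 and 47 bases), Ano4 (1190 and 216) and the sorting nexin Snx18 (870 and 150). The calls of Gfpt2, Ano4 and Snx18 were kept without picrotoxin replicate 20 and lost without any other library. Among genes with a shorter leader, 7 of 248 tested rose and 5 fell; among those within 100 bases, 9 of 800 rose and 17 fell; and among those with a longer one, 2 of 69 rose and 3 fell. Over all genes tested, 1.67% rose and 1.62% fell, and 248 of the 1117 members tested had a shorter leader.

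**Figure D5:**
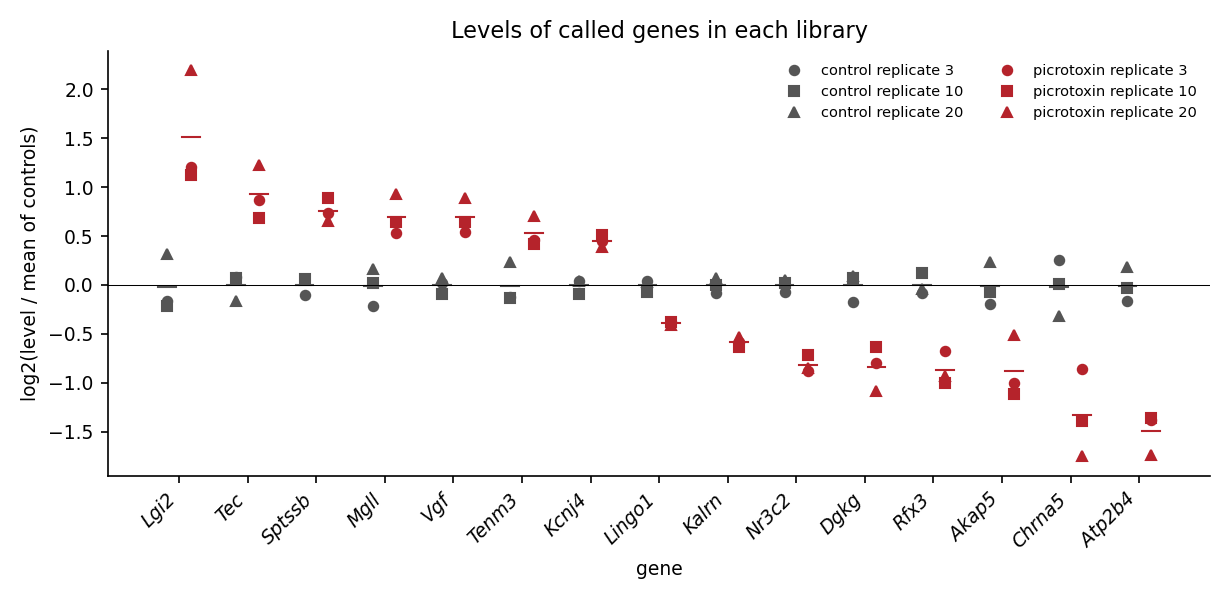
Level of 15 called genes in each library as log2 of the scaled fragment count over the mean of the 3 controls; symbols give the replicate number, grey is control, red is picrotoxin and the short lines are means. In each gene the 3 picrotoxin libraries lie outside the range of the controls, from Lgi2 at the top to Atp2b4 at the bottom.

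The largest fall was in Atp2b4, a plasma membrane calcium pump (ENSRNOG00000003031, chr13:55157901-55204057 in the authors' table). Its scaled fragment counts were 1706, 1869 and 2178 in control and 732.9, 745.6 and 573.2 in picrotoxin. Every picrotoxin library held fewer fragments than the lowest control. The log2 fold change was -1.49 ± 0.13 (adjusted p = 0.00171), and the leader was 459 bases in both arms. Nr3c2, described above for its shift at both ends, had 906, 964.5 and 984.5 in control and 515.2, 577.4 and 526.2 in picrotoxin, with -0.82 ± 0.09 (adjusted p = 0.0045). Atp2b4 and Nr3c2 were the 2 members whose calls were kept when each of the 6 libraries was left out in turn.

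Kalrn, Akap5 and Dgkg were also among the genes that fell. Kalrn, at chr11:72701012-73115328 in the authors' table, had 2771, 2939 and 3085 scaled fragments in control and 1957, 1881 and 2024 in picrotoxin, with a log2 fold change of -0.58 ± 0.08 (adjusted p = 0.00754) and lengths of 16727 and 17177 bases. Akap5, which anchors protein kinase A at postsynaptic sites, had 721.1, 782 and 969.6 against 412.2, 379 and 578.5, with -0.86 ± 0.17 (adjusted p = 0.0255). Dgkg, a diacylglycerol kinase, had 1642, 1947 and 1974 against 1065, 1190 and 874.5, with -0.84 ± 0.13 (adjusted p = 0.0108). The arms did not overlap in these genes, and in Akap5 the library of picrotoxin replicate 20 was nearest to the controls. The lengths of Akap5 (485 and 500) and Dgkg (513 and 512) were stable. Without control replicate 10 the adjusted p was 0.063 for Kalrn, 0.0741 for Dgkg and 0.107 for Akap5, and Akap5 was also lost without control replicate 20 (0.0728), picrotoxin replicate 10 (0.0893) or picrotoxin replicate 3 (0.104).

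Fgf13, an intracellular fibroblast growth factor homologue that binds sodium channels and microtubules, was the most abundant of the genes that fell, at 339.5 FPKM in control. It had 7861, 8569 and 7929 scaled fragments in control and 5279, 5702 and 4240 in picrotoxin. The log2 fold change was -0.69 ± 0.11 (adjusted p = 0.013), with 929 and 910 bases of leader. The call was lost without control replicate 10 (adjusted p = 0.0824). Atp1b2, a beta subunit of the sodium pump, had 2517, 2754 and 3094 against 1855, 1880 and 1971, with -0.55 ± 0.09 (adjusted p = 0.0158), and its leader was listed as 120 bases longer, at 459 and 579. In both genes each picrotoxin library lay below each control. Atp1b2 lost its call without control replicate 10 (adjusted p = 0.0895) or picrotoxin replicate 3 (0.0688) or 10 (0.06).

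Chrna5, a nicotinic acetylcholine receptor subunit, was a low-level gene whose ends changed on both sides. It had 130.4, 109.7 and 87.96 scaled fragments in control and 60.27, 41.77 and 32.43 in picrotoxin, with a log2 fold change of -1.29 ± 0.25 (adjusted p = 0.0237). Replicate 20 was the lowest in each arm. Its 5' length went from 5401 to 44 bases and its 3' length from 4129 to 44. The adjusted p was 0.116 without control replicate 10, 0.0883 without control replicate 3 and 0.0827 without picrotoxin replicate 10. Rfx3, a transcription factor of cilia, fell by 0.86 ± 0.12 on the log2 scale (adjusted p = 0.00806) with lengths of 506 and 188, and its adjusted p was 0.0638 without control replicate 10.

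Further genes that fell had stable leaders. Thsd7a, a membrane protein with thrombospondin domains, had a log2 fold change of -0.70 ± 0.12 (adjusted p = 0.0162; 831 and 810 bases) and Arhgef25, a guanine nucleotide exchange factor, -0.69 ± 0.12 (adjusted p = 0.0154; 550 and 565 bases). Cdh11, a cadherin, had -0.59 ± 0.09 (adjusted p = 0.0118; 491 and 487 bases), and Sept5, a septin of presynaptic terminals, -0.38 ± 0.08 (adjusted p = 0.0304; 3661 bases in both). Cdh11 lost its call without control replicate 10 (adjusted p = 0.0824), Thsd7a without control replicate 10 or 20 or picrotoxin replicate 3 or 10 (0.0531 to 0.0875), Arhgef25 without any 1 control or picrotoxin replicate 3 (0.0507 to 0.0769), and Sept5 without any 1 library other than picrotoxin replicate 20 (0.0722 to 0.138). 17 of the 25 genes that fell had leaders within 30 bases of each other in the 2 arms, where 58.8% of all members did.

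In the activity-regulated list, Vgf was the one of 9 members that rose, and none fell; the block gave 4 and 1, and the median log2 difference of the 9 was 0.35. Of 35 genes of the whole list tested, 4 rose and 4 fell, with 11 and 8 under the block and a median of 0.10. Bdnf had 6147, 4730 and 5229 scaled fragments in control and 7555, 7413 and 6715 in picrotoxin, a log2 difference of 0.44 ± 0.10 that missed the threshold (adjusted p = 0.0515; 1.8e-04 with the replicate block). Dusp4, a phosphatase of MAP kinases, had 694.9, 681.3 and 844.6 against 914.7, 1023 and 1224, with 0.51 ± 0.13 (adjusted p = 0.0665; 4.8e-05 with the block). In both genes the picrotoxin libraries lay above the controls. Scaling by library totals put both past the threshold (adjusted p = 0.0445 and 0.0464), and leaving out the filter on low values did so for Bdnf (0.0393). Nr4a3, an orphan nuclear receptor, had 3278, 3485 and 5194 against 2938, 3061 and 4143, so that the arms overlapped and replicate 20 was the highest in each (-0.22 ± 0.18, adjusted p = 0.597; 0.015 with the block). Fosb, an AP-1 subunit, showed the same standing of replicate 20, with 186.9, 180.7 and 518.2 in control and 204.1, 204.7 and 513.6 in picrotoxin. Inhba, the activin beta A subunit, went from 5254 to 143 bases with few fragments, 47.69, 27.86 and 46.63 against 62.21, 30.28 and 102.5.

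Of the 12 members in the list of voltage-gated and leak ion channels and the 9 in the list of receptor subunits, none was called in either direction with limma, and 2 and 4 fell with the block, none rising. Their median log2 differences were 0.01 and -0.05. Over the whole lists, 0 of 47 channel genes rose and 2 fell, with 7 and 12 under the block, and 2 of 44 receptor genes rose and 7 fell, with 4 and 18 under the block. Kcnk12, Kcnj4 and Chrna5, described above, are not in these lists. At an unadjusted p under 0.05 stood 233 of all 1117 members tested, beside 1295 of 7398 names under the limit. Cacng3, an auxiliary subunit of AMPA receptors, had a log2 difference of -0.45 ± 0.11 (adjusted p = 0.0648; 0.00113 with the block) and Kcnj6, a G protein-gated potassium channel, -0.39 ± 0.13 (adjusted p = 0.139; 0.00607 with the block). Grin2a, an NMDA receptor subunit, had 767.9, 685.8 and 793.7 scaled fragments in control and 626, 463.6 and 626.6 in picrotoxin, without overlap, and 1176 and 208 bases of leader (-0.40 ± 0.13, adjusted p = 0.143; 0.00104 with the block). Grin2b, the subunit that prevails early in development, had -0.45 ± 0.18 (adjusted p = 0.235; 2.7e-04 with the block) with 495 bases in both arms. Glra2, a glycine receptor subunit, had -0.41 ± 0.14 (563 and 183 bases) and Grm2, a metabotropic glutamate receptor, -0.47 ± 0.17 (1781 and 837 bases), with adjusted p values of 0.155 and 0.174, and of 4.7e-04 and 0.00694 with the block.

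Among 14 synaptic scaffold, spine and adhesion members, Kalrn fell and none rose. Akap5 and Cdh11, which fell, and Tenm3, which rose, are described above and are not in this list. With the block 4 fell and none rose, and the median log2 difference was -0.16. Over the 47 genes of the whole list tested, none rose and 4 fell, with 2 and 18 under the block and a median of -0.18. Pcdh19, a protocadherin, had 446.7, 446.7 and 504.4 scaled fragments against 289.7, 200.5 and 385, a log2 difference of -0.72 ± 0.20 (adjusted p = 0.0885; 8.8e-04 with the block). Efnb3, an ephrin ligand, had -0.28 ± 0.08 (adjusted p = 0.0832; 0.00389 with the block). None of the 5 presynaptic members was called, and 1 rose and 3 fell with the block, where the whole list of 41 had 1 and 1 calls without it and 4 and 14 with it. Sept5, described above among the genes that fell, is not one of these 5. Unc13b, a vesicle priming factor, had 0.60 ± 0.20 (adjusted p = 0.138; 0.0206 with the block) and Erc1, an active zone protein, -0.42 ± 0.10 (adjusted p = 0.0617; 2.1e-04 with the block). In both the arms did not overlap.

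In the cytoskeleton and axon guidance list, 2 of 14 members fell and none rose, against 6 and 1 with the block, with a median log2 difference of -0.11. Over the 47 genes of the whole list tested, none rose and 3 fell, against 2 and 20 with the block, with a median of -0.18. Lingo1, a co-receptor of the Nogo receptor, had 4601, 4243 and 4540 scaled fragments in control against 3433, 3417 and 3347 in picrotoxin (-0.39 ± 0.07, adjusted p = 0.0201), with 445 and 565 bases. Its picrotoxin libraries were closely grouped below the controls, yet the call was lost without any 1 of the libraries other than picrotoxin replicate 20. Slit3 had -0.33 ± 0.09 (adjusted p = 0.0762; 0.0016 with the block).

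None of the 4 initiation factor members passed, with or without the block. Of 58 genes of the whole list, none rose and 1 fell without the block, and 5 rose and 4 fell with it. Among the members, Pabpc1 had a log2 difference of -0.13 ± 0.08 (adjusted p = 0.423), Cyfip2 -0.15 ± 0.09 (adjusted p = 0.467) and Ddx3x, whose leader stayed at 1129 bases, -0.14 ± 0.11 (adjusted p = 0.593). None of the 7 genes known for leader-based control was called either, with or without the block, and their median was -0.04. Of 38 genes of that whole list tested, 2 rose and 1 fell, with 4 and 6 under the block. Myc had 97.32, 97.07 and 104.9 scaled fragments in control and 60.27, 61.61 and 109.8 in picrotoxin, where replicate 20 stood within the control range (-0.42 ± 0.23, adjusted p = 0.404). Ntrk2, the receptor of BDNF, had -0.14 ± 0.15 (adjusted p = 0.706), with leaders of 474 and 534 bases and 3' lengths of 3698 and 5168.

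Members of the remaining lists were not called without the block. Rfx3, Nr3c2 and Dgkg, which fell, and Tec, which rose, are described above and are not in these lists. Of 9 kinase and signalling members tested, 1 rose and 2 fell with the block, where the whole list of 57 had 1 and 9 calls without it and 9 and 24 with it. Among the members were Dgkb, a diacylglycerol kinase (-0.36 ± 0.10, adjusted p = 0.0903; 6.2e-04 with the block), and Prkcb (-0.21 ± 0.08, adjusted p = 0.214; 0.0333 with the block). Of 6 RNA-binding members, 3 fell with the block, as did 12 of 55 genes of the whole list, which had no call without it: Mbnl2 and Celf4, regulators of splicing, had -0.23 ± 0.09 and -0.26 ± 0.13, and Cpeb4, a regulator of cytoplasmic polyadenylation, -0.33 ± 0.17 (adjusted p = 0.231, 0.328 and 0.372; 0.0368, 0.00964 and 0.00442 with the block). Of 38 ubiquitin and turnover genes, 1 fell without the block and 11 with it; of the 6 members, Usp9x, a deubiquitinase, fell with the block alone (-0.22 ± 0.13, adjusted p = 0.425; 0.0468 with the block). Of 41 transcription factor and chromatin genes, 1 rose and 2 fell without the block, and 4 rose and 11 fell with it. None of the 5 members tested was called either way, with Atf2 at -0.08 ± 0.08 (752 and 346 bases), Bcl11b at 0.10 ± 0.10 and Meis2 at -0.15 ± 0.17. In the whole lists, 2 RNA-binding genes and 1 ubiquitin and turnover gene also rose with the block.

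In the authors' deposited table, 107 of 1118 members with status OK (9.57%) were marked significant, against 932 of 12405 genes (7.51%). Of the 43 members called here, 42 were marked in the authors' deposited table. No source used here gives the strand of the libraries, so overlapping genes on opposite strands cannot be told apart in the levels or the ends.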

How the data were processed

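PolyA RNA was measured in 3 control and 3 picrotoxin libraries. The tools in the submitters' processing notes are bedtools 2.22.1, Cuffnorm, Cuffdiff, Cufflinks 2.2.1 and STAR 2.3.1z12; their roles and the build are not stated there. Judged from its values, the deposited per-library signal is a fragment count scaled by 1 factor per library, without length scaling. Per the file headers, the authors' Cuffdiff table gives FPKM per arm, p-values and q-values, a log2 fold change and a test score. The authors' table of UTR lengths pools replicates; no source used here says how ends were called.

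Of 1224 members, 1123 matched a gene symbol exactly and 48 by case alone; 53 did not match and 31 matched several gene IDs and were given no level. The test of levels was that of limma 3.58.1 in R 4.3.3, with trend and robust settings, two-sided, on log2(value + 1), with Benjamini-Hochberg adjustment over all 12046 genes at 1 FPKM or more in either arm, and a threshold of 0.05. Fold changes are on that scale, which understates low genes. The script was tested on simulated data. Same-numbered libraries deviated together (correlations 0.405, 0.391 and 0.547 for replicates 3, 10 and 20, and at most 0.055 with another number). The main fit has no block and so leaves this pairing out. Calls, missed thresholds and lost calls refer to that fit unless the block is named. The fit with the replicate block takes the numbers as pairs and is given as the alternative. Other alternatives were pseudocounts, filters, scalings, limits and left-out libraries.

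Members and gene lists were chosen with earlier results of these data known. The text names the 8 longest members, the 8 largest rises and falls among called genes, the 6 largest lengthenings and shortenings, the 4 most abundant, 3 on each side of the limit and up to 3 per list by adjusted p; Tenm3, Kcnj4, Fgf13, Atp1b2, Cabp1, Cdh11, Sept5 and the genes with several entries were chosen after their values were seen, as were those named by length alone. A few genes that this rule names are not reported here.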

Additional observations from a re-analysis of the deposited data

How the results depend on the processing

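With the replicate block, 1162 of all genes rose and 1251 fell, and 102 and 169 of the members. Without trend and robust settings, 94 and 65 of all genes and 5 and 8 of the members were called. Leaving out each library in turn gave 15 to 378 and 14 to 516 calls over all genes and 0 to 30 and 2 to 75 over the members. Of the 43 called members, 18, 2 and 15 were still called without control replicate 3, 10 or 20, and 14, 14 and 43 without picrotoxin replicate 3, 10 or 20. Quantile scaling kept 39, library totals 40, a filter at 5 FPKM 40 and pseudocounts of 0.1 and 5 all 43, and no called member changed sign. Among uncalled genes, leaving out 1 library turned the sign of the log2 difference in several, and those given here are not a full list. For control libraries they were Brpf3 (-0.16 to 0.02, control replicate 20) and Meis2 (-0.29 to 0.01, control replicate 20). For picrotoxin libraries they were Polr3g (-0.02 to 0.28, picrotoxin replicate 20), Ubn2 (-0.52 to 0.07, picrotoxin replicate 10) and Wdfy2 (-0.35 to 0.02, picrotoxin replicate 3). Tspan9 (-0.11 to 0.18) turned without control replicate 10, at -0.02, and without picrotoxin replicate 20. With a limit of 600 bases in control, 735 names remained, with a median length difference of -3 bases, 211 shorter and 46 longer. Chosen by picrotoxin length, 86 were shorter and 269 longer, and by the mean of arms 217 were shorter and 196 longer. The causes were not tested. Matching symbols by the same case, chosen after seeing the data, gave 18 and 24 members that rose and fell. A count model was not run, because the deposited values are not whole counts. Replicates are pooled in the length table, so no precision can be given for a length.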

Other observations

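A further 211 names reached 400 bases in picrotoxin but not in control, with medians of 178 and 639 bases, and 73 of them were under 100 bases in control. Zbtb20, a zinc finger repressor of hippocampal development, was listed at 370 bases in control and 31993 in picrotoxin, and Pik3cd, a catalytic subunit of phosphoinositide kinase, at 32 and 10996. In the limma test of level, 197 of these genes were included, of which 6 rose and 2 fell, where 1.67% and 1.62% of all genes tested did. With the replicate block 28 rose and 25 fell, where 9.65% and 10.4% of all genes did, and their median log2 difference was -0.03. The choice again used one arm, so the direction of these lengths is a description.

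Of the 13 members with microRNA names, Mir24-1 and Mir3556b matched no gene. The others were listed at 0 in every polyA library except Mir212, with 3.138 scaled fragments in picrotoxin replicate 20. Mir138-1 was listed at 830 bases in control and 1270 in picrotoxin, and Mir21 at 1945 and 1990.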
